A study of Mus musculus with 18 samples.

Results

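The enteroendocrine hormone and granule genes *Gcg*, *Pyy*, *Insl5*, *Nts*, *Cck*, *Sst*, *Iapp*, *Chga*, *Chgb* and *Tph1* were followed in RNA-Seq libraries of mouse colon. They were chosen by name, as genes that mark the hormone-producing cells of the gut, and make up 10 of the 47729 genes in the count table. All 10 passed the filter on low counts, which kept 16937 genes. The study asked how loss of *Cldn2*, the gene of a channel-forming tight junction protein, changes mucosal repair and colitis-associated cancer. WT mice and *Cldn2*KO mice, littermates on a C57BL/6 background, were compared as controls, after recovery from colitis induced by DSS (dextran sulfate sodium, which damages the epithelium when mice drink it), and after azoxymethane (AOM, a carcinogen) with DSS. The labels give a single AOM dose of 10 mg/kg and 3 cycles of 2.5% DSS as the treatment, in the same words for all samples, controls and recovery included. The labels name the knockout with no promoter or cell type and give no ages. Every group of the 6 held 3 libraries, and the labels do not say how the replicates were obtained, so p-values measure the spread between these libraries.

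Enteroendocrine cells are scattered secretory cells of the intestinal epithelium that sense the contents of the lumen and release peptide hormones or serotonin from dense-core granules. Their hormone repertoire changes along the gut. L cells make glucagon-like peptides from *Gcg* together with PYY and, in the distal colon, INSL5, whereas neurotensin from *Nts* is typical of the ileum and the more proximal gut. Enterochromaffin cells make serotonin, for which *Tph1* encodes the rate-limiting enzyme, and D cells make somatostatin. Chromogranins A and B (*Chga*, *Chgb*) are granule proteins shared by most of these cells.

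Libraries held between 17.6 and 27.4 M counted reads, with a median of 19.6 M. *Cldn2* stood at 44.5 CPM (counts per M reads, scaled between libraries) or more in every WT library and at 0.557 CPM or less in every *Cldn2*KO library, so the genotype labels matched. *Hoxb13* marks the distal colon, which the paper names as the RNA source for mice recovering from DSS colitis. For AOM/DSS mice the paper names the colon without a segment. *Hoxb13* divided the libraries differently from the labels. *Hoxb13* lay between 198 and 570 CPM in 11 libraries and at 0.502 CPM or less in the other 7, which were all 6 recovery libraries and WT control replicate 2. The summed level of 6 posterior Hox genes was 11 CPM in WT control replicate 2, 1.77 to 3.59 CPM in recovery and at least 521 CPM in the others. Most of it in that control was *Hoxd10*, with 7.46 CPM against 1.08 to 2.08 CPM in recovery and at least 18.3 CPM in the others. *Xist* had at least 865 CPM in replicates 2 and 3 of WT recovery, *Cldn2*KO recovery and *Cldn2*KO AOM/DSS but did not exceed 1.16 CPM elsewhere, so sex was not balanced between groups. The summed level of 10 epithelial markers was between 13827 and 27001 CPM, and of 12 pancreatic markers the islet genes *Ins1* and *Ins2* had 0 reads in all libraries. The other pancreatic markers stayed at or below 1.18 CPM except *Cela1*, an elastase, which fell in WT (log2 fold change -1.57 ± 0.49, adjusted p = 0.0316) and *Cldn2*KO recovery (-3.31 ± 0.52, adjusted p = 0.000919) and stood at 53.7 CPM in WT control replicate 2. Some tissue markers, not all, differed in the same way. Small intestinal markers, 11 in all, summed to 1782 CPM for WT control replicate 2 and to between 468 and 2310 CPM for the recovery libraries, while the remaining controls had 29.2 to 74.5 CPM and the AOM/DSS libraries 37.0 to 1218.5 CPM. *Car1*, a colonic carbonic anhydrase, had 45440 CPM for that control and from 8171 to 43582 CPM after recovery, while WT control replicates 1 and 3 had 573 and 605 CPM and the *Cldn2*KO controls 2626 to 4318 CPM. Other colonic markers placed WT control replicate 2 away from recovery. The water channel *Aqp8* had 2303 CPM there, 29.2 to 421 CPM in recovery and 643 to 1238 CPM in the other controls. The chloride exchanger *Slc26a3* had 2135 CPM against 307 to 926 CPM in recovery, and the goblet cell mucin *Muc2* 1384 CPM against 4003 to 11676 CPM, and for both it lay within the range of the other controls. Of 7 small intestinal markers tested 1 rose in WT and 3 rose in *Cldn2*KO recovery, and of 6 colonic markers 1 rose in each while 3 and 2 fell, beside 10% of all genes up and 12.2% down in WT and 9.43% up and 10% down in *Cldn2*KO recovery. Their part in the hormone levels was not tested.

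Levels of *Nts*, *Sst*, *Cck* and *Insl5* separated the 7 libraries without *Hoxb13* from the other 11, and sequence before the start sites of 3 of them is shown. The window of *Cck* is left out and held no match to the motifs marked below. The windows are the 250 bases upstream of RefSeq transcript starts (GRCm38.p6), read on the gene's strand. They are *Nts* (chr10:102490419-102490668, minus strand), *Sst* (chr16:23890845-23891094, minus strand) and the more upstream start of *Insl5* (chr4:103027272-103027521, minus strand), which lies 429 bases from the gene start in the count table. Capitals mark the AP-1 motif TGANTCA in *Nts*, the cAMP response element TGACGTCA in *Sst* and the TATA motif TATAAA, here on the opposite strand, in *Insl5*.
Nts: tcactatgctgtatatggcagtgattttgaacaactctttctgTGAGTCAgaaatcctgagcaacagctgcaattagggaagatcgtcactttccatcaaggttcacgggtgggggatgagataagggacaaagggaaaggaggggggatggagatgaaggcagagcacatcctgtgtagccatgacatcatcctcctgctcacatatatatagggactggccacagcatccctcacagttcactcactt
Sst: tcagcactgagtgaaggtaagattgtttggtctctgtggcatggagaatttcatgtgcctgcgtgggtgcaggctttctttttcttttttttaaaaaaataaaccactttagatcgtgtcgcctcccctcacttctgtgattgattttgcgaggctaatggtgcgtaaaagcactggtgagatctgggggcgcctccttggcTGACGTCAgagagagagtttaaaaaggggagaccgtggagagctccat
Insl5: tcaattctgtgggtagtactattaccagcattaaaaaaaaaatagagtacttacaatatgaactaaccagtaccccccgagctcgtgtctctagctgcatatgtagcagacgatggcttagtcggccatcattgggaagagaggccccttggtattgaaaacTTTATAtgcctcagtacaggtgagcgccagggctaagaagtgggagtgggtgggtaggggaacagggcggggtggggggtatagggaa
All 10 genes had at least 1 such window, 13 in all. Searched on both strands, TGACGTCA was found in 2 of the 10 genes (*Sst*, 48 bases before the start, and *Chgb*, 72 bases before it) and in 1.55% of 32851 mouse windows of the same length. TGANTCA was found in *Nts* and in 6.75% of all windows. TATAAA was found in *Gcg* and *Insl5* and in 12.4% of all windows. The *Insl5* window not shown held it on the gene's strand, 49 bases before the start. CANNTG, the E-box bound by NEUROD1 and many other factors, was found in all but *Tph1* and in 66.2% of all windows, and CAATAAA, a motif of Hox13 and Cdx type, in none of the 10 genes and in 4.2% of all windows. These matches describe the letters of the windows and were not related to the levels.

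**Figure D1:**
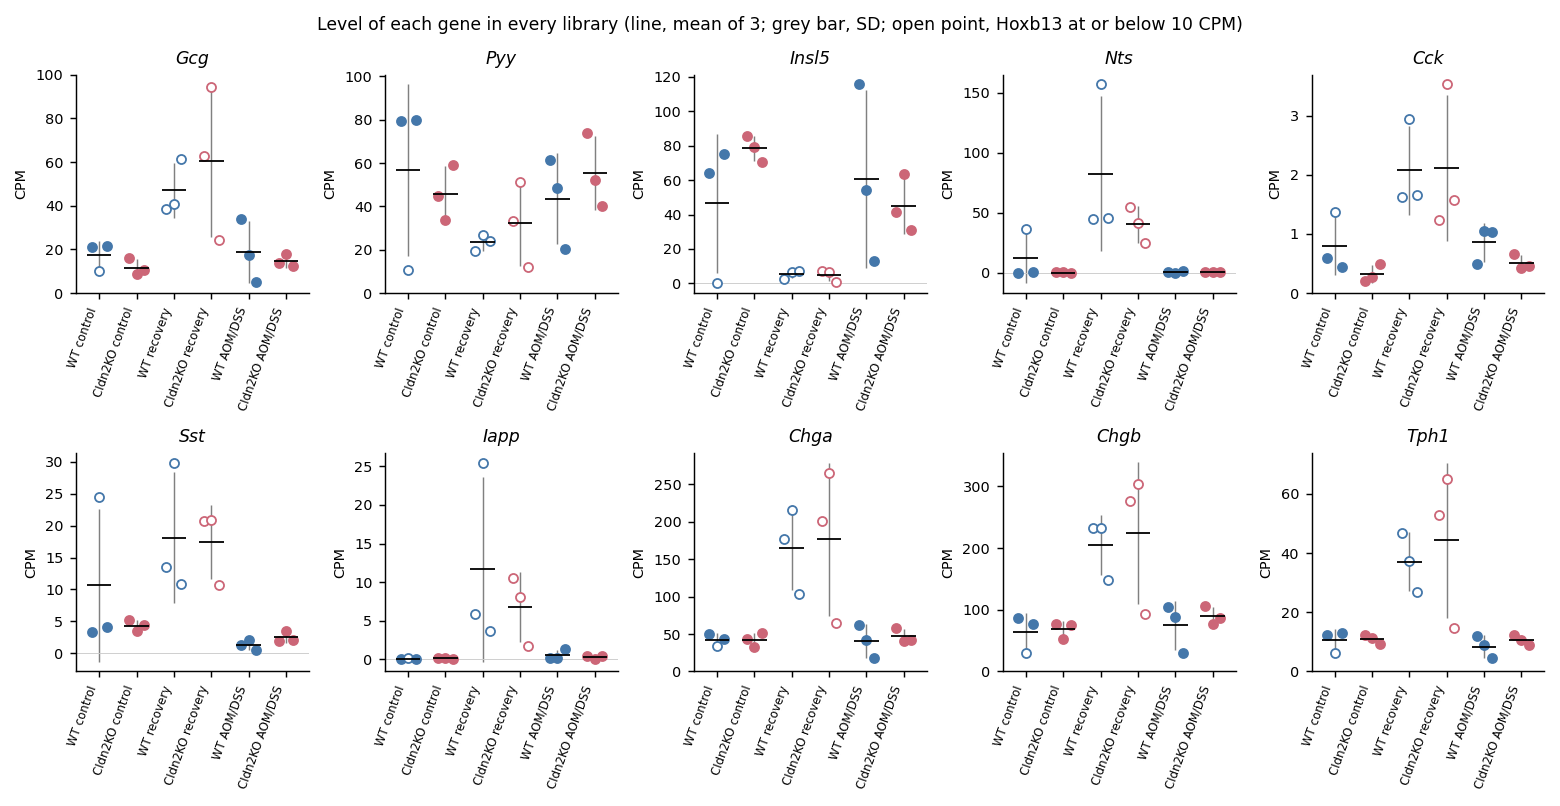
Level of each gene in CPM (vertical axis, linear) in the 18 libraries, by group (horizontal axis). Points are libraries, blue for WT and red for *Cldn2*KO, open where *Hoxb13* was at or below 10 CPM, with the mean of 3 as a line and the SD as a grey bar. Open points of *Insl5* lie at or below 7.10 CPM and filled points at or above 12.8 CPM, while open points of *Nts* lie at or above 24.8 CPM and filled points at or below 1.37 CPM.

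Of the L-cell hormones, *Gcg* rose and *Insl5* fell in *Cldn2*KO recovery, *Pyy* passed the test in neither genotype and none of the 3 passed in WT recovery. *Gcg* (ENSMUSG00000000394, GRCm38 chromosome 2, 62474530 to 62483650, minus strand) encodes the precursor of the glucagon-like peptides. WT controls had 21, 10.2 and 21.6 CPM (in replicate order, as in all such lists), WT recovery libraries 38.7, 40.9 and 61.5, and WT AOM/DSS libraries 33.8, 17.6 and 5.25. The *Cldn2*KO controls had 16, 8.60 and 10.5 CPM, recovery libraries 62.9, 94.3 and 24.4, and AOM/DSS libraries 13.7, 17.8 and 12.2. Recovery and control did not overlap in either genotype, while AOM/DSS overlapped with control in both. *Gcg* was 5.17-fold higher in recovery than in control in *Cldn2*KO mice (log2 fold change 2.37 ± 0.57 SE, adjusted p = 0.00967, edgeR quasi-likelihood test). In WT mice it was 2.66-fold higher and did not pass the test (1.41 ± 0.55, adjusted p = 0.0768).

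*Pyy* (ENSMUSG00000017311, chromosome 11, 102106676 to 102107832, minus strand), the satiety hormone released with the glucagon-like peptides, did not pass the test in recovery of either genotype. WT controls had 79.4, 10.8 and 80.0 CPM and WT recovery libraries 19.4, 26.9 and 24.1. The *Cldn2*KO controls had 44.9, 33.8 and 59.0 CPM and the *Cldn2*KO recovery libraries 33.5, 51.5 and 12.1. WT control replicate 2 lay below every recovery library, and the other 2 WT controls lay above them all. The log2 fold change of recovery was -1.28 ± 0.62 in WT (adjusted p = 0.151) and -0.51 ± 0.61 in *Cldn2*KO mice (adjusted p = 0.614). Without WT control replicate 2 it was -1.79 ± 0.49 in WT and passed the test (adjusted p = 0.0149). With the presence of *Hoxb13* as a covariate the sign turned (1.12 ± 0.68 in WT, adjusted p = 0.311, and 2.38 ± 0.85 in *Cldn2*KO mice, adjusted p = 0.227). *Gcg* and *Pyy* had a Pearson correlation of 0.78 across the 11 libraries with *Hoxb13* and of 0.92 across the 7 without it, a description of libraries that also share treatment and tissue makeup. In AOM/DSS *Pyy* stood between 20.4 and 61.5 CPM in WT and between 40.1 and 73.8 CPM in *Cldn2*KO mice.

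*Insl5* (ENSMUSG00000066090, chromosome 4, 103017872 to 103026842, minus strand), the insulin-like peptide of distal colonic L cells, was lower in recovery. WT controls had 64.1, 0.131 and 75.1 CPM and WT recovery libraries 2.56, 6.74 and 7.10. The *Cldn2*KO controls had 85.5, 79.2 and 70.8 CPM and the *Cldn2*KO recovery libraries 7.01, 6.45 and 0.837. WT control replicate 2 held 2 reads of *Insl5*, the fewest of all libraries, and every other control lay above every recovery library. *Insl5* fell by 4.04 ± 1.21 on the log2 scale in *Cldn2*KO recovery (adjusted p = 0.0297), a call kept in 6 of 16 alternatives (adjusted p between 0.00473 and 0.318) and lost without any 1 of the 6 libraries. The sign of its log2 fold change turned with *Hoxb13* presence as a covariate (4.95, and 5.30 in WT recovery). In WT recovery the log2 fold change was -3.10 ± 1.16 (adjusted p = 0.0685), or -3.71 ± 0.77 without WT control replicate 2 (adjusted p = 0.00302). The WT AOM/DSS libraries had 116, 54.0 and 12.8 CPM and those of *Cldn2*KO mice 41.5, 63.5 and 30.8.

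*Nts* (ENSMUSG00000019890, chromosome 10, 102481760 to 102490418, minus strand), the neurotensin precursor, showed the opposite pattern. WT controls had 0.118, 36.7 and 0.439 CPM and WT recovery libraries 45.2, 157 and 46.1. The *Cldn2*KO controls had 0.345, 0.333 and 0.161 CPM and the *Cldn2*KO recovery libraries 55.0, 41.3 and 24.8. Every recovery library had at least 24.8 CPM, and of the controls replicate 2 of WT alone lay in their range. *Nts* was 141-fold higher in recovery than in control in *Cldn2*KO mice (log2 fold change 7.14 ± 1.61, adjusted p = 0.0072). This became 0.02, without passing the test, when *Hoxb13* presence was a covariate. In WT mice the log2 fold change was 2.75 ± 1.19 (adjusted p = 0.108), or 8.26 ± 0.89 without WT control replicate 2 (adjusted p = 1.5e-05). In the 6 AOM/DSS libraries *Nts* did not exceed 1.37 CPM.

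Of the hormones of other enteroendocrine cells, *Sst*, *Cck* and *Iapp* rose in *Cldn2*KO recovery, and of these 3 *Iapp* alone passed in WT recovery. *Sst* (ENSMUSG00000004366, chromosome 16, 23889581 to 23890844, minus strand), which encodes somatostatin, an inhibitor of the release of other gut hormones, had 3.42, 24.4 and 4.11 CPM in WT controls. WT recovery libraries had 13.6, 29.8 and 10.9 CPM and WT AOM/DSS libraries 1.36, 2.10 and 0.520. The *Cldn2*KO controls had 5.23, 3.44 and 4.41 CPM, recovery libraries 20.8, 20.9 and 10.7, and AOM/DSS libraries 1.95, 3.47 and 2.11. The single WT control within the range of recovery was again replicate 2. *Sst* rose 3.99-fold in *Cldn2*KO recovery (log2 fold change 2 ± 0.67, adjusted p = 0.0466), a call kept in 7 of 16 alternatives. With *Hoxb13* presence as a covariate the sign turned (-0.70 ± 0.77, adjusted p = 0.777). In WT recovery the log2 fold change was 0.77 ± 0.64 (adjusted p = 0.416), or 2.24 ± 0.53 without WT control replicate 2 (adjusted p = 0.00619).

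*Cck* (ENSMUSG00000032532, chromosome 9, 121489825 to 121495689, minus strand), which encodes the hormone that contracts the gallbladder, had 1.63, 2.94 and 1.66 CPM in the WT recovery libraries and 1.23, 3.53 and 1.57 in those of *Cldn2*KO mice. WT controls had 0.590, 1.37 and 0.439 CPM and *Cldn2*KO controls 0.197, 0.277 and 0.484, with WT control replicate 2 highest. *Cck* was 6.55-fold higher in *Cldn2*KO recovery (2.71 ± 0.56, adjusted p = 0.00404) and 2.61-fold higher in WT recovery without passing the test (1.38 ± 0.52, adjusted p = 0.0656). *Iapp* (ENSMUSG00000041681, chromosome 6, 142298423 to 142303961, plus strand), which encodes amylin, had 2 reads in the 3 WT controls together and 8 in the *Cldn2*KO controls. WT recovery libraries had 5.90, 25.5 and 3.73 CPM and *Cldn2*KO recovery libraries 10.6, 8.03 and 1.77. All 6 recovery libraries lay above all controls, WT control replicate 2 (0.131 CPM) included. The ratio of WT recovery to WT control was 299, with a 95% interval of 82.5 to 2478 that covers counting error only, and *Iapp* passed the test in WT (adjusted p = 0.00171) and in *Cldn2*KO recovery (5.54 ± 1.17, adjusted p = 0.00462). *Slco1a5* lies across *Iapp* on the other strand, and whether the counting used strand was not stated. The genes share 0 exon bases, and *Slco1a5* did not exceed 0.0814 CPM in recovery.

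The granule proteins and the serotonin enzyme rose together. *Chga* (ENSMUSG00000021194, chromosome 12, 102554969 to 102565027, plus strand) had 50.5, 33.4 and 43.5 CPM in WT controls, and the WT recovery libraries had 177, 215 and 103, the *Cldn2*KO controls 43.6, 32.3 and 51.3, and the *Cldn2*KO recovery libraries 201, 265 and 64.5. *Chgb* (ENSMUSG00000027350, chromosome 2, 132781278 to 132795079, plus strand) had 86.4, 29.6 and 76.6 CPM in WT controls against 232, 233 and 149 in the recovery libraries, and 77.6, 53.0 and 75.1 CPM in *Cldn2*KO controls against 276, 303 and 92.4. *Tph1* (ENSMUSG00000040046, chromosome 7, 46647130 to 46672537, minus strand) had 12.4, 6.29 and 13.1 CPM in WT controls against 46.9, 37.4 and 27.0 in the recovery libraries, and 12.3, 11.2 and 9.42 CPM in *Cldn2*KO controls against 53.0, 65.1 and 14.8. For all 3 genes every recovery library lay above every control, and *Cldn2*KO recovery replicate 3 was the lowest of the recovery libraries.

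*Chga* rose 3.89-fold in WT recovery (log2 fold change 1.96 ± 0.48, adjusted p = 0.0107) and 4.17-fold in *Cldn2*KO recovery (2.06 ± 0.48, adjusted p = 0.00829). *Chgb* rose 3.18-fold in WT (1.67 ± 0.49, adjusted p = 0.0245) and 3.27-fold in *Cldn2*KO mice (1.71 ± 0.49, adjusted p = 0.0236). *Tph1* rose 3.49-fold in WT (1.80 ± 0.46, adjusted p = 0.0125) and 4.04-fold in *Cldn2*KO mice (2.01 ± 0.46, adjusted p = 0.00723). In tissue RNA, more hormone cells and more RNA per hormone cell cannot be told apart. Across the 18 libraries the log2 CPM of *Tph1* correlated with that of *Chga* (Pearson r = 0.97) and *Chgb* (r = 0.95). The values for *Tph1* and *Chga* were 0.82 within the 11 libraries with *Hoxb13* and 0.98 within the 7 without, a description of libraries that share their tissue and scaling.

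Of the 10 genes, 4 passed the test upward in WT recovery against WT control and 0 downward, while 22.2% of all genes tested were called in either direction and 10% upward. The WT call was kept in 16 of 16 alternatives for *Tph1*, 15 for *Chga* and *Iapp* and 12 for *Chgb*. Each of the other 6 genes passed in 2 to 4 of the 16. In *Cldn2*KO recovery 8 rose and 1 fell, with 19.4% of all genes called, 9.43% upward. Of these 9 calls, those of *Gcg*, *Chga*, *Tph1*, *Cck*, *Nts* and *Iapp* were kept in 15 of 16 alternatives each, all but the covariate of *Hoxb13* presence, and those of *Chgb* in 9, *Sst* in 7 and *Insl5* in 6. Without a single library 6 to 8 genes were called, 8 without *Cldn2*KO recovery replicate 3 and 6 without any of the others. The median log2 fold change of the 10 genes was 1.54 in WT and 2.04 in *Cldn2*KO mice, beside -0.04 and 0.00 over all genes tested. Groups did not overlap for 7 genes in WT (37.7% of all genes) and for 9 in *Cldn2*KO mice (40.3%). *Cldn2*KO recovery replicate 3 was the lowest of its group for 9 of the 10 genes.

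**Figure D2:**
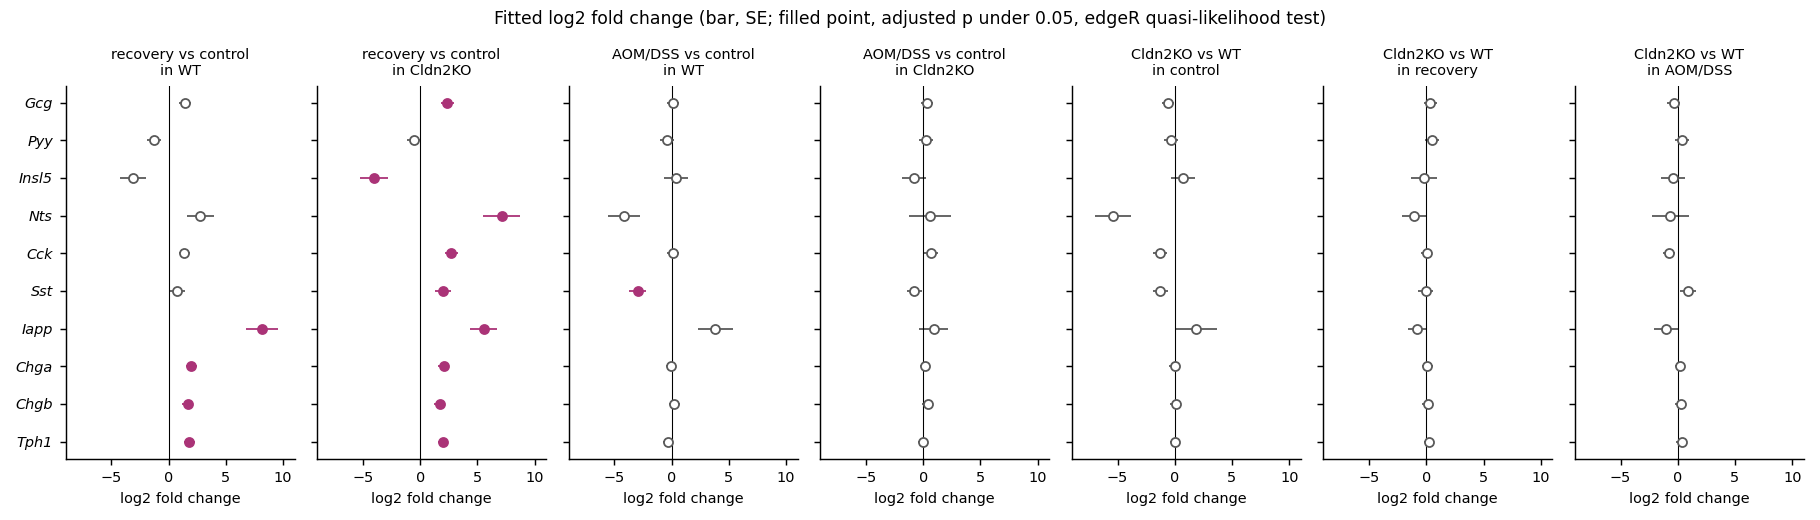
Fitted log2 fold change of each gene (horizontal axis, with its SE as a bar) in 7 comparisons of 3 against 3 libraries, with filled points for an adjusted p under 0.05. Filled points number 4 in WT recovery, 9 in *Cldn2*KO recovery and 1 in WT AOM/DSS, and 0 in *Cldn2*KO AOM/DSS and the 3 comparisons of genotype.

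Because all recovery libraries and a single control lacked *Hoxb13*, treatment and absence of *Hoxb13* could be separated only through WT control replicate 2 as it is labelled. Its *Cldn2* level of 44.5 CPM matched WT, but whether it or the recovery libraries came from another segment of the colon, or whether it was exchanged with another sample, was not tested, and the values with the covariate or without this library rest on its label. The 7 libraries without *Hoxb13* lay entirely above the other 11 for *Nts*, *Sst* and *Cck* and entirely below them for *Insl5*. *Sst* stood between 10.7 and 29.8 CPM in the 7 libraries and between 0.520 and 5.23 CPM in the 11, and *Cck* between 1.23 and 3.53 CPM against 0.197 to 1.05 CPM. WT control replicate 2 lay within the range of the 6 recovery libraries for these 3 hormones. For the other 7 genes all 6 recovery libraries lay above it. *Chgb* stood at 29.6 CPM in that control and between 92.4 and 303 CPM in recovery, and *Gcg* at 10.2 CPM against 24.4 to 94.3 CPM. *Insl5* and *Pyy* were also above it in recovery, so their direction depended on the controls used.

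With the presence of *Hoxb13* as a covariate, 2 of the 10 genes passed the test in WT recovery, *Chgb* (2.79 ± 0.71, adjusted p = 0.0281) and *Tph1* (2.56 ± 0.71, adjusted p = 0.0384), and 0 in *Cldn2*KO recovery (smallest adjusted p = 0.0972, for *Chgb*). This term rests on the difference between WT control replicate 2 and the other 2 WT controls. Under it *Insl5* had a log2 fold change of 5.30 ± 1.89 in WT and 4.95 ± 2.08 in *Cldn2*KO mice, and that of *Nts* was 1.17 ± 0.73 and 0.02 ± 1.54. In *Cldn2*KO recovery *Iapp* then had 1.02 ± 3.93 (adjusted p = 0.948) and *Cck* 1.31 ± 0.89 (adjusted p = 0.585). *Gcg* (3.43 ± 1.03, adjusted p = 0.15), *Chga* (2.55 ± 0.89, adjusted p = 0.216) and *Tph1* (3.03 ± 0.84, adjusted p = 0.115) had larger estimates that did not pass either. Without WT control replicate 2, 8 genes passed in WT recovery, 6 upward and *Insl5* and *Pyy* downward. *Chgb* did not pass there (1.30 ± 0.49, adjusted p = 0.0644). Shares of all genes called in these refits, with the covariate or without this library, are not given here. The change in counts from the fit of 18 libraries therefore cannot be read as particular to the hormone genes.

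**Figure D3:**
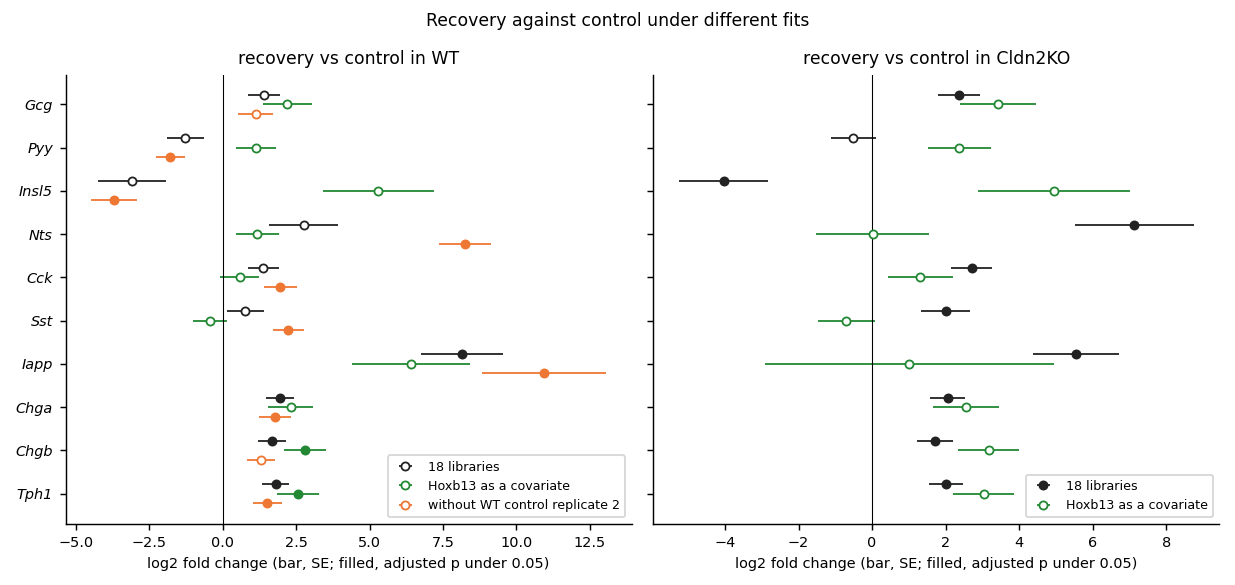
Log2 fold change of recovery against control (horizontal axis, with its SE) for each gene in WT (left) and *Cldn2*KO mice (right), from the fit of 18 libraries (black), with *Hoxb13* presence as a covariate (green) and, for WT, without WT control replicate 2 (orange). *Chga*, *Chgb* and *Tph1* stay between 1.30 and 3.17 in every fit shown, while *Insl5* turns from -3.10 to 5.30 in WT.

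The order of the genes, compared as CPM per kb of transcript so that long and short transcripts can be set beside each other, differed between recovery and the other groups. In *Cldn2*KO controls *Insl5* (108 ± 10.2 CPM per kb, SD, n = 3) ranked above *Pyy* (72.8 ± 20.0), *Chgb* (25.0 ± 4.94) and *Chga* (22.5 ± 5.08), of which *Chgb* and *Chga* overlapped. In *Cldn2*KO recovery *Chga* (93.9 ± 54.3) and *Chgb* (81.7 ± 41.9) ranked highest and *Insl5* (6.58 ± 4.72) ninth, while the ranges of *Chga*, *Chgb*, *Pyy* (51.2 ± 31.3), *Gcg* (40.5 ± 23.4) and *Nts* (34.3 ± 12.9) all overlapped with one another. *Insl5* made up 37.0% to 50.9% of the summed level of the 10 genes in *Cldn2*KO controls, 0.762% to 2.30% in *Cldn2*KO recovery and 21.9% to 36.3% in *Cldn2*KO AOM/DSS. The chromogranin *Chga* made up 22.6% to 27.8% of it in *Cldn2*KO recovery and 7.98% to 10.3% in *Cldn2*KO controls.

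The ratio of *Gcg* to *Pyy*, both per kb, was between 0.399 and 1.08 in the 7 libraries without *Hoxb13* and between 0.0755 and 0.232 in the other 11. In WT control replicate 2, *Nts* and *Sst* made up 24.3% and 31.7% of the summed level, while *Insl5* made up 0.141%.

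**Figure D4:**
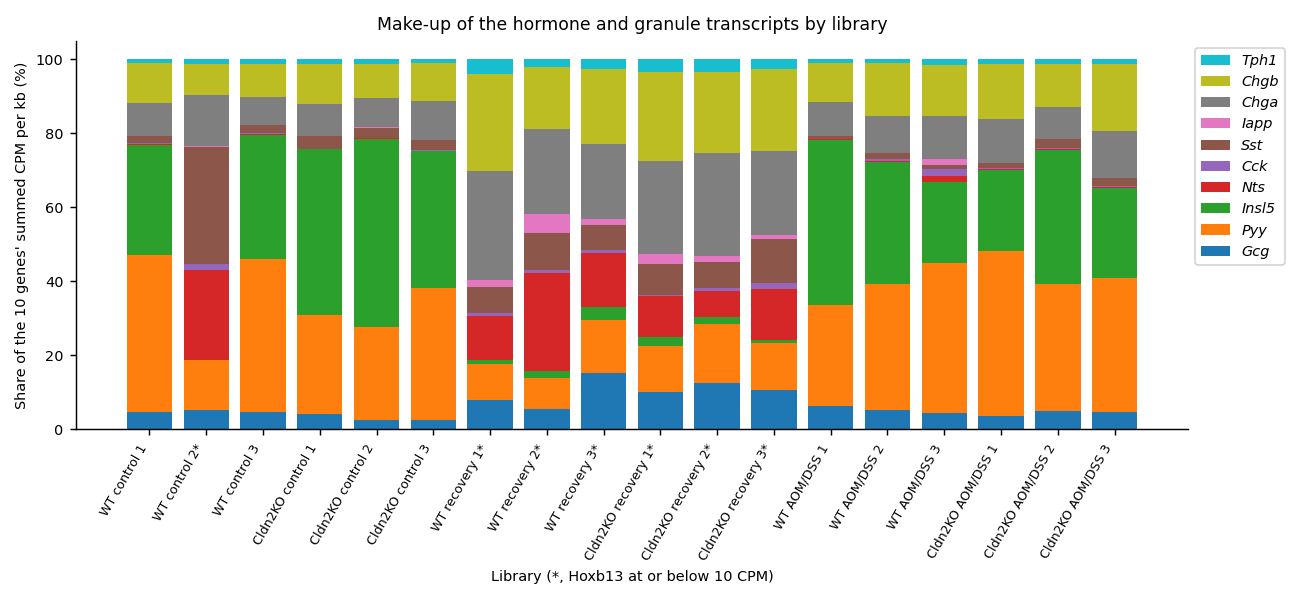
Share of each gene in the summed CPM per kb of the 10 genes (vertical axis, percent) in each library (horizontal axis), with a star where *Hoxb13* was at or below 10 CPM. The green *Insl5* segment is at most 3.64% in the 7 starred libraries and at least 21.9% in the other 11.

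After AOM/DSS most of the hormone genes overlapped with the controls. In WT AOM/DSS 1 of the 10 genes passed the test, with 10.4% of all genes called (3.81% higher, 6.58% lower), and groups did not overlap for 2 genes (32.2% of all genes). *Sst* fell by 2.99 ± 0.71 on the log2 scale (adjusted p = 0.0232), from 10.7 ± 11.9 CPM in WT controls to 1.33 ± 0.791 CPM. Much of the control mean came from replicate 2, and without it the log2 fold change was -1.51 and did not pass (adjusted p = 0.114). Without WT AOM/DSS replicate 3 it was -2.60 (adjusted p = 0.102). *Nts* (-4.18 ± 1.39, adjusted p = 0.0642) and *Iapp* (3.79 ± 1.52, adjusted p = 0.111) did not pass, and the other 7 genes had log2 fold changes between -0.39 and 0.39.

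In *Cldn2*KO AOM/DSS 0 of the 10 genes passed (edgeR), with 0.195% of all genes called, 0 genes at an unadjusted p under 0.05, and 0 genes with DESeq2 or limma-voom. The log2 fold changes lay between -0.79 (*Insl5*) and 0.92 (*Iapp*), and groups did not overlap for 2 genes (29.1% of all genes). In *Chga* the groups stood at 46.7 ± 10.2 CPM in AOM/DSS and 42.4 ± 9.56 CPM in control. WT AOM/DSS replicate 3 was the lowest of its group for 7 of the 10 genes and the lowest of all 18 libraries for 4, *Gcg*, *Chga*, *Tph1* and *Sst*. It also had the lowest epithelial marker sum of all libraries (13827 CPM), and the part of this in the hormone levels was not tested.

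Between genotypes, none of the 10 genes passed the test in control, recovery or AOM/DSS. In controls 0 genes passed (edgeR), with 1.17% of all genes called (0.124% higher), 2 genes at an unadjusted p under 0.05, 1 gene with DESeq2 (*Nts*) and 0 with limma-voom. *Nts* had a log2 difference of -5.42 ± 1.57 (adjusted p = 0.117), *Sst* -1.28 ± 0.66 (adjusted p = 0.436), *Cck* -1.29 ± 0.58 (adjusted p = 0.351) and *Iapp* 1.84 ± 1.82 (adjusted p = 0.751), and the other 6 genes lay between -0.59 and 0.75. The first 3 were highest in WT control replicate 2. Without it the differences were 0.10 for *Nts* and 0.19 for *Sst*. Without WT control replicate 1 or 3, *Nts* passed (-6.01, adjusted p = 0.0327, and -5.99, adjusted p = 0.0498).

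In recovery 0 genes passed (0.974% of all genes called) and in AOM/DSS 0 (0.0059%), with 0 genes at an unadjusted p under 0.05 and 0 with DESeq2 or limma-voom in each. *Nts* had a log2 difference of -1.03 ± 1.12 in recovery (82.7 ± 64.2 CPM in WT and 40.4 ± 15.1 CPM in *Cldn2*KO mice) and the other 9 genes lay between -0.78 and 0.46. *Iapp* had a log2 difference of -1.04 ± 1.07 in AOM/DSS and the other 9 genes lay between -0.75 and 0.92. Groups overlapped for all 10 genes in all 3 comparisons, while 22.3%, 23.9% and 11.3% of all genes did not overlap in control, recovery and AOM/DSS.

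The interaction of genotype with recovery was passed by 0 genes (0.13% of all genes called, 0.106% upward, 1 gene at an unadjusted p under 0.05, 0 with DESeq2 and limma-voom), and that with AOM/DSS also by 0 (0.0118%, with 1 gene and 0). The largest terms were those of *Nts* (4.38 ± 1.92 for recovery, adjusted p = 0.24, and 4.77 ± 2.27 for AOM/DSS, adjusted p = 0.596) and *Iapp* (-2.62 ± 2.02 and -2.88 ± 2.12). *Cck* (1.33 ± 0.75), *Sst* (1.23 ± 0.91 and 2.20 ± 0.95) and *Insl5* (-1.18 ± 1.49 for AOM/DSS) were the other terms above 1 in size. With *Hoxb13* presence as a covariate the *Nts* terms were -1.15 and -0.76.

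Related genes of the same cells were counted by function. Of 11 tested transcription factors of the lineage, 1 rose in WT recovery, *Neurod1* (2.07 to 4.84 CPM, log2 fold change 1.22 ± 0.40, adjusted p = 0.0414), which acts late in enteroendocrine differentiation, and 0 passed in *Cldn2*KO recovery or in either AOM/DSS group. Of all genes 22.2% were called in WT recovery (10% upward), 19.4% in *Cldn2*KO recovery, 10.4% in WT AOM/DSS and 0.195% in *Cldn2*KO AOM/DSS. *Neurog3*, which starts the lineage, stood between 0.0946 and 1.91 CPM over all libraries. Of 16 tested genes of prohormone processing and the granule, 1 rose in WT recovery and 2 rose and 1 fell in *Cldn2*KO recovery, shares at or below the 22.2% and 19.4% of all genes called. *Pcsk1*, the convertase that cleaves proglucagon in L cells, rose in both (2.03 ± 0.42, adjusted p = 0.00438, and 2.32 ± 0.42, adjusted p = 0.00198). *Ptprn2*, a granule membrane protein, rose in *Cldn2*KO recovery (2.08 ± 0.34, adjusted p = 0.00102) and the amidating enzyme *Pam* fell (-1.11 ± 0.26, adjusted p = 0.00866).

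In WT AOM/DSS 5 of the 16 granule genes fell and 0 rose, where 6.58% of all genes fell, among them *Pcsk2* (-2.47 ± 0.54, adjusted p = 0.0174), *Scg3* (-1.80 ± 0.46, adjusted p = 0.0286), *Rab3c* (-1.61 ± 0.49, adjusted p = 0.0463) and *Ptprn* (-1.61 ± 0.34, adjusted p = 0.0161). Enteric neurons also express these genes, and 7 of 14 markers of enteric neurons and glia fell in the same comparison, with summed levels of 15.9 to 65.2 CPM in WT AOM/DSS against 121 to 135 CPM in WT controls. Their part in the granule genes was not tested. Without WT control replicate 2, 1 of the 16 passed, and the share of all genes called in that refit is not given here.

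Of the 5 genes of serotonin synthesis, storage and removal beside *Tph1*, 0 passed in WT recovery, and 1 rose and 2 fell in *Cldn2*KO recovery, where 22.2% and 19.4% of all genes were called. The serotonin transporter *Slc6a4* fell there (31.6 to 6.17 CPM, log2 fold change -2.36 ± 0.76, adjusted p = 0.0423), as did the decarboxylase *Ddc* (-1.18 ± 0.36, adjusted p = 0.034), while the degrading enzyme *Maoa* rose (1.35 ± 0.45, adjusted p = 0.0462). *Slc6a4* had a log2 fold change of -2.17 ± 0.76 in WT recovery (adjusted p = 0.0528). In WT AOM/DSS *Maoa* (-1.55 ± 0.45, adjusted p = 0.042) and the vesicular transporter *Slc18a2* (-1.06 ± 0.31, adjusted p = 0.0421) fell, where 10.4% of all genes were called and 6.58% fell. WT control replicate 2 stood apart for these genes as well. *Maoa* had 3209 CPM in it, 794 to 1009 CPM in the other 5 controls and 1945 to 3705 CPM in recovery. *Slc6a4* had 2.03 CPM in it, 25.8 to 43.0 CPM in the other controls and 3.84 to 8.67 CPM in recovery. Without it 0 of the 5 genes passed in WT AOM/DSS, and 2 rose and 1 fell in WT recovery. With *Hoxb13* presence as a covariate 0 of the 5 passed in recovery or AOM/DSS of either genotype, and in *Cldn2*KO recovery at most 1 passed when any single library of the comparison was left out. Shares of all genes called in these refits are not given here. Mast cells also store amines, and of 6 tested mast cell markers *Cma1* fell and *Kit* rose in both recovery groups. Summed levels of the markers were 28.3 to 54.6 CPM in recovery and 20.0 to 38.9 CPM in controls. Most of the recovery sum was *Kit*, with 22.7 to 52.8 CPM there and 13.1 to 18.1 CPM in controls. *Cma1* did not exceed 0.122 CPM in recovery, and the highest of the rest was *Mcpt1* (7.23 CPM in *Cldn2*KO recovery replicate 3). The part of mast cells in the amine genes was not tested.

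Of 5 other gut hormone genes tested, 0 passed in WT recovery and 2 in *Cldn2*KO recovery, beside 22.2% and 19.4% of all genes. *Sct*, which encodes secretin, rose from 2.32, 2.05 and 2.91 CPM in *Cldn2*KO controls to 35.0, 28.5 and 59.4 CPM in *Cldn2*KO recovery (4.07 ± 0.92, adjusted p = 0.00718). *Ppy*, which encodes pancreatic polypeptide, fell there (-3.39 ± 0.96, adjusted p = 0.0223). WT control replicate 2 had 58.7 CPM of *Sct* and 0.458 CPM of *Ppy*, each within the range of the 6 recovery libraries, while the other 2 WT controls had 4.68 and 3.24 CPM of *Sct* and 13.1 and 14.4 CPM of *Ppy*. *Sct* fell in WT AOM/DSS (-3.49 ± 0.90, adjusted p = 0.0307), and without that control 0 of the 5 hormones passed there. The share of all genes called in that refit is not given here. No library held a read of *Gast*.

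Of 9 tested sensors through which enteroendocrine cells read the lumen, 2 rose and 1 fell in each recovery comparison, where 22.2% (WT) and 19.4% (*Cldn2*KO) of all genes were called. The fitted difference was above 0 for 7 of the 9 in WT (median log2 fold change 0.42) and for 4 in *Cldn2*KO mice (median -0.12). *Ffar2*, a receptor for short-chain fatty acids, had 15.7, 20.4 and 16 CPM in the WT recovery libraries against 3.07, 1.37 and 4.33 in WT controls (2.56 ± 0.36, adjusted p = 0.000708) and rose in *Cldn2*KO recovery too (2.63 ± 0.37, adjusted p = 0.000482). *Ffar4*, a receptor for long-chain fatty acids, rose in WT (1.60 ± 0.32, adjusted p = 0.0035) and *Cldn2*KO recovery (1.96 ± 0.32, adjusted p = 0.00104). The mechanosensitive channel *Piezo2* fell in WT (-2.18 ± 0.35, adjusted p = 0.00117) and *Cldn2*KO recovery (-1.95 ± 0.34, adjusted p = 0.00145). With *Hoxb13* presence as a covariate *Ffar2* still passed in both (3.65 ± 0.51 and 4.05 ± 0.59), *Piezo2* passed in WT and *Ffar4* in neither. *Ffar2* also rose in WT AOM/DSS (1.21 ± 0.35, adjusted p = 0.042). These sensors are expressed in other cells of the colon too, such as leukocytes for *Ffar2*.

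Of 12 tested receptors for the hormones, 3 rose and 3 fell in WT recovery, and 1 rose and 4 fell in *Cldn2*KO recovery. Of all genes, 10% rose and 12.2% fell in WT recovery, and 9.43% rose and 10% fell in *Cldn2*KO recovery. The receptors of PYY and its relatives fell in both, *Npy1r* by 3.01 ± 0.80 in WT (adjusted p = 0.0162) and 3.25 ± 0.80 in *Cldn2*KO mice (adjusted p = 0.0109) on the log2 scale, and *Npy4r* by 2.39 ± 0.35 (adjusted p = 0.000759) and 2.87 ± 0.35 (adjusted p = 0.000236). *Glp2r*, the receptor for the intestinotrophic peptide GLP-2, fell by 2.42 ± 0.47 in WT (adjusted p = 0.00295) and 2.39 ± 0.46 in *Cldn2*KO mice (adjusted p = 0.00254). WT controls had 11.1, 4.98 and 7.95 CPM of *Glp2r* and WT recovery libraries 1.51, 1.87 and 1.12. The somatostatin receptor *Sstr1* rose in both (2.56 ± 0.58, adjusted p = 0.00679, and 1.93 ± 0.56, adjusted p = 0.0253). With *Hoxb13* presence as a covariate *Npy4r* passed in both genotypes and *Ramp1*, a subunit of amylin and CGRP receptors that rose in WT recovery (1.82 ± 0.43, adjusted p = 0.0084), in WT. *Npy1r* stood at 1.18 CPM in WT control replicate 2, just below WT recovery (1.24 to 2.01 CPM), and *Npy4r* at 10.0 CPM there, above every recovery library. Smooth muscle carries some of these receptors, and 5 of 8 smooth muscle markers fell in WT recovery and 8 of 8 in *Cldn2*KO recovery. Summed smooth muscle markers stood between 3736 and 5606 CPM in WT controls and between 697 and 2074 CPM in WT recovery, and their part in the receptor levels was not tested.

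**Figure D5:**
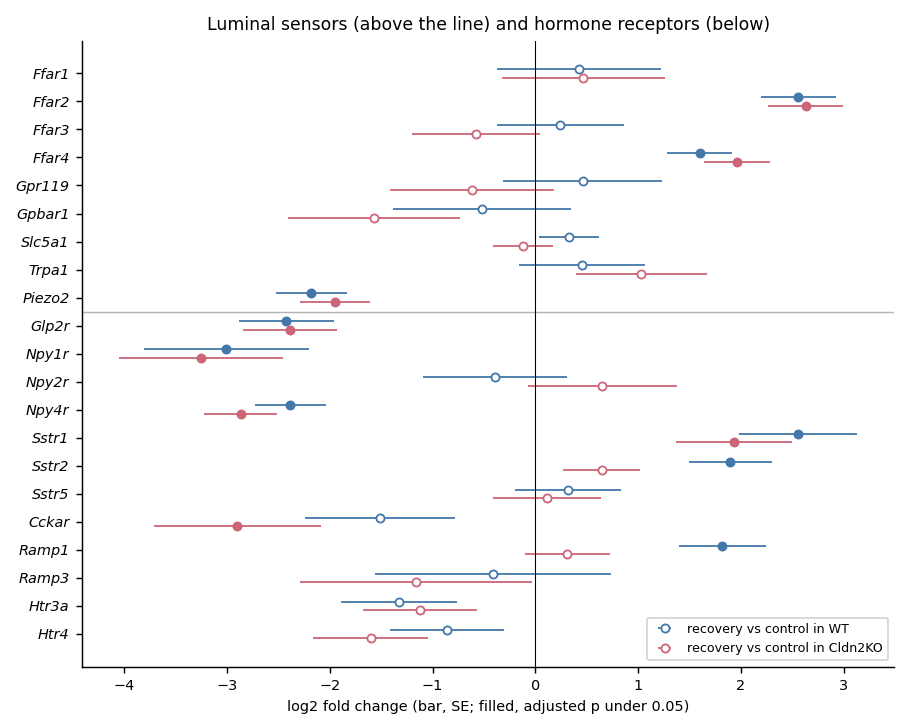
Log2 fold change of recovery against control (horizontal axis, with its SE) for 9 luminal sensors and 12 hormone receptors, in WT (blue) and *Cldn2*KO mice (red), filled where the adjusted p was under 0.05. *Ffar2* and *Ffar4* lie to the right of 0 and *Piezo2*, *Glp2r*, *Npy1r* and *Npy4r* to the left of it in both genotypes.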

How the data were processed

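Colon RNA-Seq libraries of 6 groups (WT and *Cldn2*KO, each as control, recovery and AOM/DSS, n = 3) were analysed. The authors deposited raw counts per gene, without normalization, for 18 libraries on 2 lanes. Their paper names TopHat2 for alignment, whereas the submitters' processing notes name HISAT2 with featureCounts and GRCm38. Versions, annotation release and strandedness were not given in the sources used here, so overlapping genes on opposite strands cannot be separated. The 2 lanes of a library were added, since their counts differed about as counting noise would (chi-square over its degrees of freedom at most 1.17), whereas replicates differed more (at least 11.0). Identifiers were matched to symbols for 47224 of 47729 genes, and the rest held at most 0.0735% of reads.

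Genes were kept by filterByExpr (edgeR 4.0.16, R 4.3.3), libraries were scaled by TMM, and glmQLFit (robust) was run on the 18 libraries together with a term for each group. The call threshold was 0.05 on p-values adjusted by Benjamini-Hochberg over 16937 genes. CPM are TMM-scaled and given as mean ± SD, log2 fold changes with the SE of the fit. The biological coefficient of variation was 0.315. Levels between genes were compared per kb of the deposited gene length. Scripts were tested on simulated data. Genes, lists and the rule for naming (all 10 genes, label checks, and up to 4 called genes per related list and comparison) were chosen with earlier results of these data known. Genes with the most similar pattern were ranked by Pearson correlation of log2 CPM (prior count 2). The result for *Sst* is not reported here. Alternatives were RLE, upper-quartile and epithelial scaling, no filter or 1 CPM in 3 libraries, DESeq2 1.42.0, limma-voom (limma 3.58.1), a fit of the compared groups, *Xist* or *Hoxb13* presence as covariates, each library left out and a replicate block. Those for related lists were chosen after seeing the data. Marker lists of epithelium, pancreas, small intestine and colon were used to check the tissue.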

Additional observations from a re-analysis of the deposited data

How the results depend on the processing

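Over 37 values of the 10 genes and 634 recomputed values, 544 kept their direction and side of the threshold, 41 lost the call, 25 gained one and 24 changed sign. With *Hoxb13* presence as a covariate, calls went from 4 to 2 in WT recovery, from 9 to 0 in *Cldn2*KO recovery and from 1 to 0 in WT AOM/DSS. Signs changed there for *Pyy* (1.12 in WT, 2.38 in *Cldn2*KO recovery), *Insl5* (5.30 and 4.95), *Sst* (-0.44 and -0.70), *Nts* in WT AOM/DSS (1.35), *Sst* and *Nts* between control genotypes (0.21 and 0.12), and the interactions of *Sst* (-0.26) and *Nts* (-1.15 for recovery, -0.76 for AOM/DSS). DESeq2 called 7 genes in WT recovery, 3 in WT AOM/DSS and 1 between control genotypes. With limma-voom the counts were 10, 0 and 0, and signs changed for *Sst* (0.18) and *Nts* (0.055) between control genotypes, *Nts* in WT AOM/DSS (0.24), the *Nts* interaction with recovery (-0.38) and *Iapp* between AOM/DSS genotypes (0.38). Calls in WT AOM/DSS were 2 with epithelial scaling and 0 with only the compared groups. The cause was not tested. Shares of all genes called are given only for the edgeR fit of 18 libraries without covariates. The counts from other fits therefore cannot be read as particular to these genes.

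Leaving out 1 library gave 3 (without WT recovery replicate 1) to 8 (without WT control replicate 2) calls in WT recovery, 6 to 8 of 9 in *Cldn2*KO recovery, 0 to 2 in WT AOM/DSS, with 0 without WT control replicate 2 or WT AOM/DSS replicate 3 and 2 without WT control replicate 1 or 3, and 0 to 1 between control genotypes, with 1 without WT control replicate 1 or 3. Log2 differences between control genotypes ran from -1.70 to 0.19 for *Sst* and from -6.01 to 0.10 for *Nts*, that of *Nts* in WT AOM/DSS from -5.20 to 1.33, and the interactions from -0.26 to 1.78 (*Sst*, recovery), -1.14 to 5.23 (*Nts*, recovery) and -0.74 to 5.79 (*Nts*, AOM/DSS), each crossing 0 without WT control replicate 2. *Iapp* between AOM/DSS genotypes ran from -1.55 to 0.72, the latter without WT AOM/DSS replicate 3. With the replicate block, 0 genes were called between control genotypes and no call changed. Deviations of same-numbered controls correlated at 0.157, 0.00234 and 0.0794, so the numbers were not taken to pair the samples. *Iapp* had 2 reads in the WT controls, so the size of its fold change there is imprecise.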

Other observations

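Among genes outside the 10, the level across the 18 libraries most like that of each of 9 genes was found by Pearson correlation of log2 CPM, which describes libraries that share their tissue and scaling. *Insl5* was closest to *Adh1*, an alcohol dehydrogenase (r = 0.98, and 0.89 within the 11 libraries with *Hoxb13* and 0.96 within the 7 without). *Pyy* was closest to *Tbrg1* (r = 0.91, and 0.94 and 0.90 within these sets). *Chga* and *Chgb* were both closest to *Smim14* (r = 0.92 and 0.94), *Tph1* to *Gbe1*, the glycogen branching enzyme (r = 0.93), and *Gcg* to *Mlxipl*, a carbohydrate-responsive transcription factor (r = 0.91). *Iapp* was closest to *Reg1* (r = 0.95). *Nts* was closest to *Snx7* (r = 0.99, but 0.52 within the 11 libraries with *Hoxb13*), and *Cck* to *Engase* (r = 0.93, but 0.44 within the 7 without it).

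*Pyy* and *Chga* did not vary together over all 18 libraries (r = -0.04), while within the 11 libraries with *Hoxb13* r was 0.88 and within the 7 without it 0.89. For *Insl5* and *Chga* r was -0.31 over all libraries, 0.72 within the 11 and 0.89 within the 7.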
